A study of Mus musculus with 12 samples.

Results

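The regions described here are stretches of chromatin in fibro-adipogenic progenitors (FAPs) that carried a peak of histone H3 lysine 27 acetylation (H3K27ac) in both libraries from young mice and in neither library from old mice. Peaks of the 4 H3K27ac lists were merged into one region where they overlapped by 1 bp or touched, on chromosomes 1 and 2 and on chromosome 3 up to position 122275556, the part of the genome covered by all 4 lists. Of 8708 merged regions, 308 had this pattern, which is 3.54% (95% exact Clopper-Pearson interval 3.16 to 3.95). Chromosome 1 held 107 of them, chromosome 2 held 123 and chromosome 3 held 78. The presence or absence of a peak chose the regions, so their H3K27ac values are given as a description and nothing about age is tested with them.

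All cells came from mdx mice on the C57Bl6 background, which lack dystrophin and are used as a model of Duchenne muscular dystrophy, so every group carries the same mutation and no healthy muscle is included. Young mice were 1.5 months old and old mice 12 months old. For 15 days they received a daily intraperitoneal injection of trichostatin A (TSA), a drug that blocks histone deacetylases, dosed at 0.6 mg/kg/day, or of the saline in which it was dissolved. Cells were sorted by flow cytometry, and chromatin was immunoprecipitated for H3K27ac or for acetylation at lysines 9 and 14 (H3K9/14ac), giving 1 library per combination of mark, age and treatment. The surface antigens of the sort and the number of mice behind a library were not given in the sources used here. There are no replicates, so every difference is one between single libraries, and the intervals printed cover counting error only, with neighbouring regions not being independent.

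FAPs are mesenchymal cells that lie between muscle fibres. They support regeneration, and in dystrophic muscle they can turn into matrix-producing fibroblasts or adipocytes. H3K27ac marks active enhancers and promoters, whereas H3K9/14ac is best known from active promoters. Both marks are placed by acetyltransferases and removed by deacetylases, the enzymes that TSA blocks.

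Few of the regions covered a promoter. In all, 19 of 308 regions (6.17%, 3.75 to 9.47) touched a RefSeq promoter window, defined as 250 bases before to 50 bases after an annotated transcript start, against 21.3% of all merged regions. Other partial patterns were also low, with 4.86% (3.17 to 7.10) for young vehicle and old TSA only and 8.06% (3.94 to 14.3) for the old lists only. For young vehicle alone the share was 1.83% (1.21 to 2.65), and for regions in all 4 lists 40.8% (39.2 to 42.4). The young-only regions touched windows of 21 genes, and 6 windows lay wholly inside a region. The sequences upstream of 5 of these 6 starts follow, because the whole window lay in a region with H3K27ac peaks in the young lists only. The sixth belongs to Gm31095, which starts just upstream of this start of Postn on the opposite strand. Letters are from RefSeq (GRCm38.p6), 250 bases long, 5′ to 3′ on the strand of the gene. Capitals mark matches on either strand to TGANTCA (the AP-1 motif), GGGCGG (the GC box), CCAAT (the CCAAT box) or TATAAA (the TATA box).
Cdca7, chr2:72475969-72476218, plus strand: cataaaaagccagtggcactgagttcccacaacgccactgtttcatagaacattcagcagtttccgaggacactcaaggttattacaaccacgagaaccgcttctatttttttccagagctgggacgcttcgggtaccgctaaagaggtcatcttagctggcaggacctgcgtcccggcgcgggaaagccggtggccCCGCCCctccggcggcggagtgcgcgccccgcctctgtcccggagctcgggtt
Vash2, chr1:190978999-190979248, minus strand: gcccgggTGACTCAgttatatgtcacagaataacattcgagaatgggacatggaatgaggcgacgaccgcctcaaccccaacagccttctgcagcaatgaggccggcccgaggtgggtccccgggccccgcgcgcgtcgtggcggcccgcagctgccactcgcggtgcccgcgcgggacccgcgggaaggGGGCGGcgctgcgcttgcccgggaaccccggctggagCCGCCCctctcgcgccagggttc
Fndc11, chr2:181219784-181220033, plus strand: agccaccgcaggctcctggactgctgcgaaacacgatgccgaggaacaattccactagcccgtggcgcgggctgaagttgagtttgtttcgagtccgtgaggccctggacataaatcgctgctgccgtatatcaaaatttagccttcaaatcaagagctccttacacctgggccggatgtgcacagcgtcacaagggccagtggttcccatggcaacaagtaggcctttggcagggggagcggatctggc
Postn, chr3:54360857-54361106, plus strand: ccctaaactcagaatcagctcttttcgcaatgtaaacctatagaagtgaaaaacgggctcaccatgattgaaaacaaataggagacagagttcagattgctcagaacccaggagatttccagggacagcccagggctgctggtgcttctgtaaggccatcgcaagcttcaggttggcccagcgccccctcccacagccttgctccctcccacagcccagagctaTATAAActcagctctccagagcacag
Creb3l4, chr3:90243513-90243762, minus strand: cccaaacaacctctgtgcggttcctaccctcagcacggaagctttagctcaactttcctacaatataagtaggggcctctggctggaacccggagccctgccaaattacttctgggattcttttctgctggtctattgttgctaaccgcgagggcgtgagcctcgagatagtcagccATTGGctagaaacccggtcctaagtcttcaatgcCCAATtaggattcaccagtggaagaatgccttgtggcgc

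The stretch before Vash2, which encodes a tubulin carboxypeptidase of the vasohibin family, was the richest of the 5 in G and C, at 70.8%, with 30 CpG dinucleotides, 2 GC boxes and 1 AP-1 match. Cdca7, a gene that is active in dividing cells, had 59.2% G and C, 21 CpG and 1 GC box. The start of Postn, the gene of the matrix protein periostin, had 52.0% G and C, 4 CpG and 1 TATA box, and the table holds another start of this gene upstream. Creb3l4, which encodes a membrane-bound transcription factor, had 52.0% G and C, 9 CpG and 2 CCAAT boxes. Fndc11, whose product carries a fibronectin type III domain, had 56.8% G and C and 14 CpG and held none of the 4 motifs.

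Over whole windows of 300 bases, the 24 windows touched by young-only regions had a median of 58.2% G and C and 18.5 CpG. The 1914 windows touched by regions with a peak in all 4 lists had 61.3% and 21, and all 6102 windows of the stretch had 52.3% and 7. A GC box was found in 16 of the 24 windows (66.7%), against 63.5% and 34.5% of the other sets in the same order. CCAAT boxes were in 14 (58.3%, against 35.2% and 35.6%), TATA boxes in 5 (20.8%, against 5.33% and 13.8%) and AP-1 matches in 4 (16.7%, against 5.49% and 8.47%). Matches to CANNTG (the E-box) were in 15 (62.5%, against 61.2% and 72.3%), to TGTGGT (the RUNX motif) in 2 (8.33%, against 10.9% and 15.6%) and to GGAATG (the TEAD motif) in 1 (4.17%, against 11.2% and 14.6%). Each motif was counted on its own on both strands, also where matches of different motifs overlapped. Some windows overlap one another, such as those of Tmx2 and Med19 or of Postn and Gm31095. Whole windows were counted, with their bases outside the regions. Among the AP-1 matches only that of Vash2 lay inside a young-only region. Among the TATA boxes only those of Postn and Gm31095 did, and they are the same site. The counts describe letters in 24 windows and say nothing of the factors.

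The 4 H3K27ac lists held 5727 to 7891 peaks in the stretch and 952786 to 1659160 tags, a tag being a sequenced read counted in a peak. Young vehicle had the longest list, with 7891 peaks, followed by old TSA with 7571, young TSA with 5945 and old vehicle with 5727. Over the 3706 regions with a peak in all 4 lists, tags of the libraries ranked alike, with Spearman's rho of 0.95 between the young libraries, 0.931 between the old ones and 0.878 to 0.918 across ages. Over 1709 regions with a peak in all 4 H3K9/14ac lists, rho was 0.911 between young TSA and old vehicle, 0.909 between the young libraries, and lowest between the old libraries and between the vehicle libraries (both 0.879). These values do not show whether the H3K9/14ac labels are right, and statements on that mark below follow the labels. Of the defining FAP markers Prrx1, Cd34, Dpt, Gsn, Fbn1, Twist2, Col3a1 and Col5a2, all 8 had an H3K27ac peak at a gene end in each library. Markers of pericytes (Rgs5, Rgs4, Des) had none in any library.

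**Figure D1:**
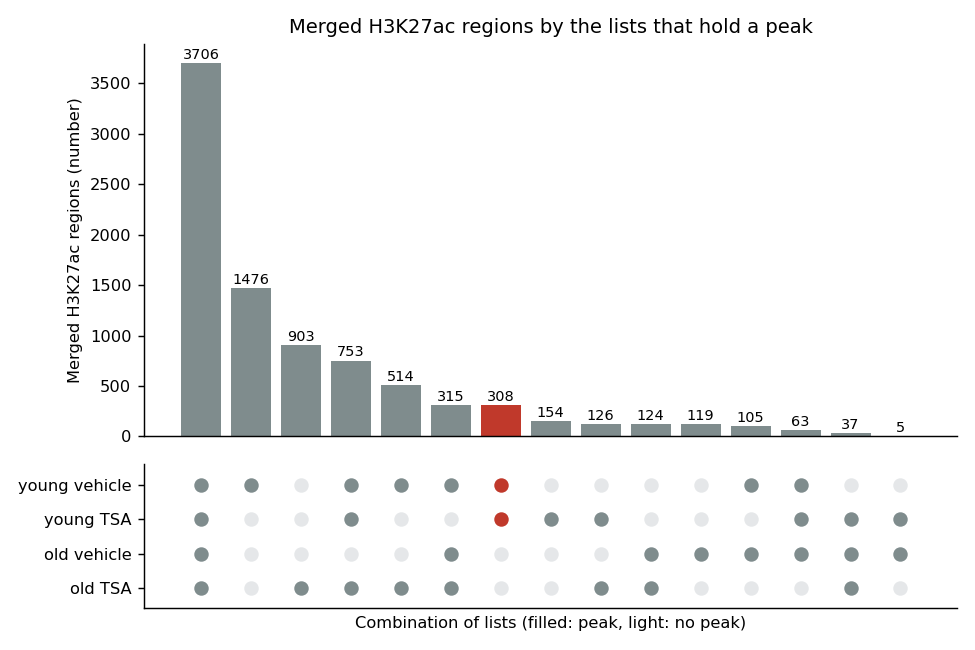
Number of merged H3K27ac regions (vertical axis) for each combination of lists with a peak (horizontal axis, filled dots below); the red bar is the 308 regions with a peak in both young lists only. Regions with a peak in young vehicle and old TSA only (514) outnumber them, and regions of the 2 old lists only number 124.

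Combinations of lists other than the young pair were also common. Young vehicle and old TSA, the longest lists, shared 514 regions that neither of the others held. The old lists alone shared 124, young TSA and old TSA 126, young vehicle and old vehicle 105, and young TSA and old vehicle, the shortest lists, 5. Of these 6 counts, that of the longest lists was the highest and that of the shortest lists the lowest. Young vehicle shared 308 regions with young TSA and 105 with old vehicle, whose lists held 5945 and 5727 peaks. The part of list length in the count of 308 was not tested. With every list cut to its 5727 peaks with most tags, 310 regions had the young-only pattern. This cut takes weak peaks from old TSA and from the young lists and none from old vehicle. It can thus make or remove young-only regions by construction, and how many of the 310 are among the 308 was not counted. When the rule was applied to 3 lists, 372 regions passed without old vehicle, 555 without young vehicle, 1080 without old TSA and 1858 without young TSA.

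The young-only regions were narrow and held few tags. Their width ran from 202 to 2373 bp with a median of 652 bp, against a median of 1492 bp for regions in all 4 lists. In young vehicle they held 25 to 276 tags (median 79), and in young TSA 22 to 291 (median 59.5), against medians of 269 and 239 in the regions of all 4 lists. Per kb of peak the gap was smaller, with medians of 139 tags in young vehicle and 152 in young TSA, against 196 and 201. Together they held 1.67% of the peak tags of young vehicle and 1.58% of those of young TSA. Regions shared only by young vehicle and old TSA were of the same kind, with a median width of 614 bp and 139 tags per kb in young vehicle.

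The old vehicle library gave fewer tags at shared regions, with a median log2 ratio to young vehicle of -0.61 over the 3706 regions, whereas that of old TSA was -0.10. Young vehicle tags of each young-only region were therefore multiplied by this median ratio and set beside the old peaks. The scaled value reached 43, the 10th percentile of tags per peak in both old lists, in 201 regions (65.3%) for old vehicle and in 274 (89.0%) for old TSA. It reached the median old peak in 23 regions for old vehicle and 62 for old TSA. With young TSA tags scaled in the same way, 148 regions (48.1%) reached 43 for old vehicle and 263 (85.4%) for old TSA. For old vehicle the scaled value was thus under 43 in 107 regions by young vehicle tags and in 160, most of them, by young TSA tags. The part of depth in their absence from the old lists was not tested.

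Many of the regions lay close to a peak of an old library. The median distance to the nearest old peak was 4145.5 bp, with 15 regions within 100 bp, 94 within 500 bp and 110 (35.7%, 30.4 to 41.3) within 1000 bp. Distances of regions missing from other lists, taken to the peaks of those lists, were of the same order, with 36.8% (32.6 to 41.1) within 1000 bp for young vehicle and old TSA only, 43.5% (34.7 to 52.7) for the old lists only and 43.3% (40.7 to 45.9) for young vehicle alone. The old TSA list held the closest old peak of 243 regions. Just inside the rule were a region 8190 bp from Nrsn2 (19 bp from an old TSA peak), one at Fkbp7 and Plekha3 (40 bp) and one in Zfp217 (56 bp). Just outside it were regions with a small old peak, such as one at Pltp, where 29 tags of an old TSA peak overlapped the young peaks over 126 bp, and one at Fam117b with 28 tags over 150 bp.

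At the other end, 122 regions (39.6%, 34.1 to 45.3) lay more than 10000 bp from any old peak, against 31.3% (27.3 to 35.5) of the regions of young vehicle and old TSA only, each set against the lists that it lacks. For the regions of the old lists only, the share beyond 10000 bp of any young peak was 27.4% (19.8 to 36.2). The interval of the young-only regions overlaps both. For regions of young vehicle alone the share was 25.3% (23.1 to 27.6), whose interval lies below that of the young-only regions. Of the young-only regions, 23 lay more than 100 kb from an old peak. When all merged regions up to 10000 bp apart were joined into domains, 193 young-only regions (62.7%) fell in a domain with an old peak, 70 were alone in theirs and 45 sat in domains of 2 or more regions without any old peak.

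Tspan18, the gene of a tetraspanin membrane protein (chromosome 2, 93201760 to 93334551), had 6 young-only regions and no old peak in the gene or within 10000 bp. From the lower to the upper coordinate the 6 regions held 53, 170, 71, 224, 64 and 36 tags in young vehicle, and 47, 156, 60, 168, 57 and 109 in young TSA. The nearest old peak lay 73236 bp from the first of them. The first 5 had fewer tags with TSA, as did 231 of the 308 regions, and the last, at the upper end of the gene, had 109 against 36. Relative to the median ratio of the young libraries over shared regions, the first 5 lay at -0.05, 0.0, -0.12, -0.3 and -0.05 (log2). Acetylated peaks covered 4978 bp of this window in young vehicle and 4257 bp in young TSA.

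Nr5a2, which encodes an orphan nuclear receptor also called LRH-1 (chromosome 1, 136842562 to 136960448), held the region with the most tags of all. That region, chr1:136946930-136949303, had 213 tags in young vehicle and 291 in young TSA, and a smaller one had 69 and 76. The nearest old peaks were 247666 and 219350 bp away. At 2373 bp it was also the widest of the 308.

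Frmd4a, the gene of a scaffold protein of cell polarity (chromosome 2, 4017650 to 4614043), also had 6 young-only regions, but its window was acetylated in every library. Of 37 merged regions there, 19 had an old peak and 7 of these a peak in all 4 lists. The young-only ones held 64, 127, 126, 111, 142 and 252 tags in young vehicle and 53, 61, 68, 73, 146 and 190 in young TSA. The last of these, chr2:4578207-4580373, was 2166 bp wide and lay 7085 bp from the nearest old peak.

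**Figure D2:**
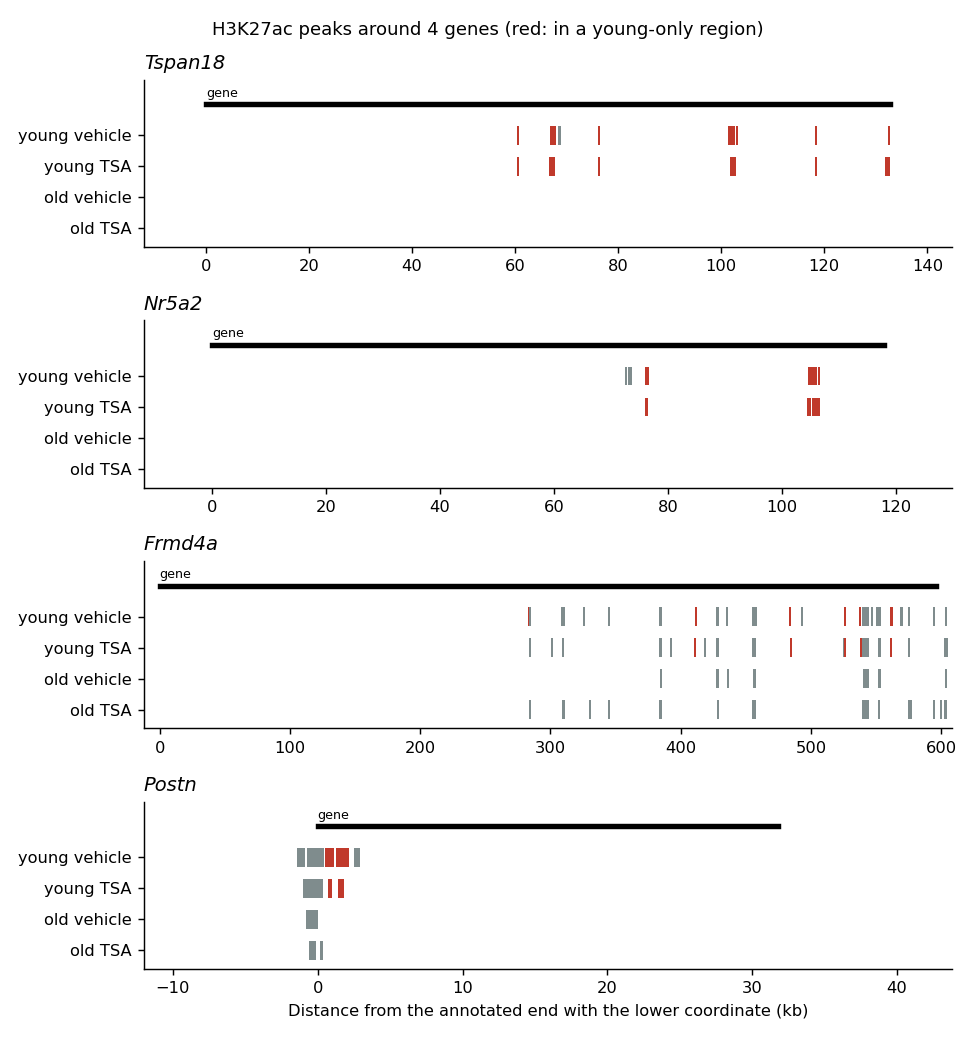
H3K27ac peaks of the 4 libraries (rows) along Tspan18, Nr5a2, Frmd4a and Postn; the horizontal axis is the distance in kb from the annotated gene end with the lower coordinate, and red marks peaks in young-only regions. Tspan18 and Nr5a2 have no old peak, Frmd4a has old peaks between its 6 young-only regions, and at Postn the old peaks end short of the red ones.

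Postn (chromosome 3, 54359267 to 54391041) showed another arrangement. Its first region, chr3:54359760-54360404, held 116 tags in young vehicle and 54 in young TSA, and began 99 bp past an old TSA peak. The second, chr3:54360541-54361406, held 157 and 69 tags and contains the start whose sequence is given above. Acetylated peaks covered 3631, 2043, 835 and 770 bp of the Postn window in young vehicle, young TSA, old vehicle and old TSA. Both young-only regions had fewer tags with TSA, as did 231 of all 308. The old libraries were marked only at the beginning of the gene.

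Genes with several such regions were few. Of 3789 protein-coding genes in the stretch, 215 (5.67%) had a young-only region inside them or within 10000 bp. In 40 of them there were 2 or more, and in 8 there were 3 or more. Besides Frmd4a and Tspan18 they included Rapgef2, an exchange factor for Rap GTPases, with 5 regions. Palmd, the palmdelphin gene, Tanc1, a scaffold protein gene, and Lamc1, the laminin gamma 1 chain of basement membranes, had 4 each, and Mbnl1, a splicing factor gene, had 3. Of those named, all except Tspan18 also had regions with an old peak, from 4 in Palmd to 21 in Rapgef2. The 215 genes had a median length of 50.8 kb, against 20.1 kb for all genes, and the part of gene length in the counts was not tested.

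Some genes had a young-only region and no old peak at all in their window, and they were picked out after the values were seen. They are 14 of the 61 gene windows with a young and no old peak. Besides Tspan18 and Nr5a2 they are Ptx3, which encodes a soluble pattern recognition protein, Trim59, Lrrc55, Cdca7, Cxcr4, Ampd1, an AMP deaminase of muscle, Vash2, Daw1, Gpr35, Slco5a1, 1700007K13Rik and Mrps2, a protein of the mitochondrial ribosome. The last pair share 1 region.

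The strongest regions outside Tspan18, Nr5a2 and Frmd4a included a pair in the gene-poor sequence by Calcrl, the receptor gene for adrenomedullin and calcitonin gene-related peptide. The one at chr2:84228952-84230482 was 100144 bp from the gene and held 276 tags in young vehicle, the most in that library, and 183 in young TSA. The other, chr2:84184278-84185646, held 190 and 189. The nearest old TSA peaks lay 65332 and 110168 bp away and the nearest old vehicle peaks 156072 and 159206 bp. Ctnnd1, the p120 catenin gene, had a region with 247 and 90 tags, 3345 bp from an old TSA peak. A region of 1869 bp that lay 53142 bp from Lrrc55 held 223 and 122 tags, and one in Rbm18, an RNA-binding protein gene, 208 and 161. Other wide regions were in Ino80, a chromatin remodelling ATPase (203 and 105 tags), and 136884 bp from Fmo9, a flavin monooxygenase gene (206 and 116).

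At gene ends, meaning within 1000 bp of either annotated end of a gene, the strongest regions were those of Iqgap3, a scaffold protein gene (152 tags in young vehicle and 130 in young TSA), and Ptx3 (148 and 135). Cdca7 followed with 101 and 124, and Cxcr4, the receptor of the chemokine CXCL12, with 79 and 144. Trim59, a tripartite motif protein gene, had a region on each side of its upper end, with 107 and 91 tags in one and 98 and 101 in the other. The others of the 12 strongest were at Postn, at the shared start of Tmx2 and of the Mediator subunit gene Med19 (98 and 70), at the clock gene Npas2 (80 and 79), at Creb3l4 (81 and 76), at Cfap45 (79 and 74) and at Fkbp7 and Plekha3 (88 and 58). Old peaks were 311 bp from the Iqgap3 region and 331 bp from the Tmx2 region, both in old TSA, but 77781 bp from that of Cdca7, 138714 bp from that of Ptx3 and 173373 bp from that of Cxcr4.

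Most of the regions lay inside genes and away from their ends. Gene ends held 39 of 308 (12.7%, 9.16 to 16.9), against 27.1% of all merged regions and 46.6% (45.0 to 48.2) of the regions in all 4 lists. Another 174 (56.5%, 50.8 to 62.1) lay inside a gene and 95 (30.8%, 25.7 to 36.3) outside genes. The 95 had a median distance of 48548 bp to the nearest gene, and 29 were more than 100 kb away. Other regions missing from a pair of lists had like shares at gene ends, with 10.5% (7.99 to 13.5) for young vehicle and old TSA only and 14.5% (8.84 to 22.0) for the old lists only. The former lay inside genes in 55.8% (51.4 to 60.2) and outside in 33.7% (29.6 to 37.9), much as the young-only regions did. The latter lay inside genes in 44.4% (35.4 to 53.5) and outside in 41.1% (32.4 to 50.3). Regions of young vehicle alone had 6.44% (5.24 to 7.81) at gene ends. Among regions with 59 to 111 young vehicle tags, the 25th to 75th percentile of the young-only values, the share at gene ends was 15.5% (10.3 to 22.1) for the young-only regions and 35.8% (30.9 to 40.9) for those in all 4 lists. For all merged regions in this range it was 17.7% (16.0 to 19.6), which lies within the interval of the young-only regions. Both gaps were smaller in this range than over all tags. Width was not matched, and the part of tags or width was not tested.

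Tags of the young libraries followed each other within the 308 regions, with fewer in young TSA in most. Of the regions, 73 (23.7%) had more tags in young TSA, 231 fewer and 4 the same, where 30.7% of all 4830 regions shared by the young lists had more. Tags were summed over each library's own peaks, and the peaks of young TSA were shorter in 231 of the 308 regions. Relative TSA tags are the log2 ratio of young TSA to young vehicle minus its median of -0.12 over the regions of all 4 lists. Their median was -0.24 in the young-only regions, with a range from -2.0 to 1.80. Values over 1 occurred in 6 regions (1.95%, against 0.911% of all regions of the young lists) and under -1 in 29 (9.42%, against 3.93%). The rule used both libraries, so nothing is read from these shares.

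**Figure D3:**
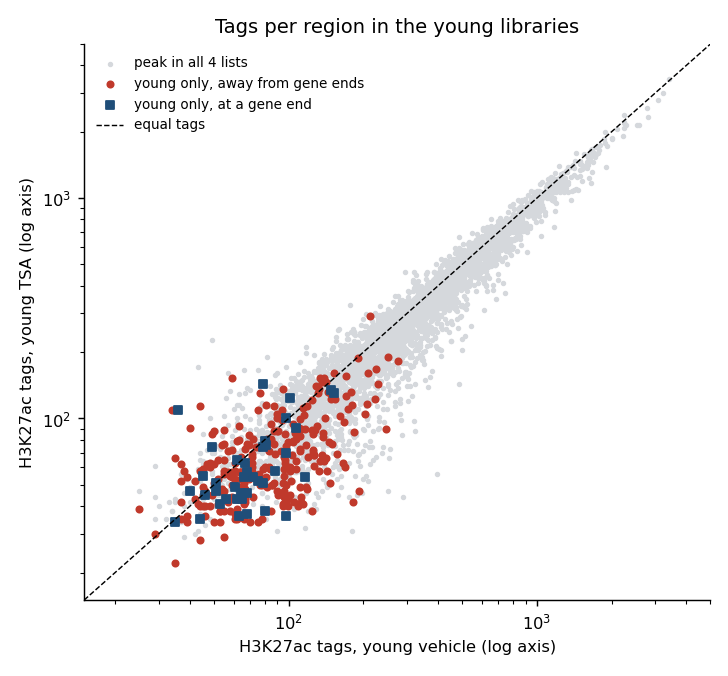
H3K27ac tags per region in young vehicle (horizontal, log axis) and young TSA (vertical, log axis) for the 308 young-only regions (red circles, and blue squares at gene ends) and the 3706 regions of all 4 lists (grey); the dashed line marks equal tags. Young-only regions lie at the low end, between 22 and 291 tags, and most fall below the line.

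Regions with the highest and lowest relative TSA tags, picked by that value, were the following. The highest lay 13396 bp from Srp9, a gene of the signal recognition particle, with 34 tags in young vehicle and 109 in young TSA (1.80 ± 0.28, the error being counting error). The upper end of Tspan18 came next (1.72 ± 0.28), then Fndc11 with 59 and 153 tags (1.49 ± 0.22). The lowest was 292899 bp from Acvr2a, an activin receptor gene, with 182 and 42 tags (-2.0 ± 0.25). Nrp2, the gene of a receptor for semaphorins and vascular growth factors, had 192 and 47 tags (-1.91 ± 0.23), and Nek7, a kinase gene, 124 and 38 (-1.59 ± 0.27). Because the regions were picked as the extremes of this ratio, the printed counting errors cannot serve as a test of a difference. Each count was also summed over that library's own peaks, whose lengths differed too. Peaks covered 1456 bp in young vehicle and 295 bp in young TSA at Nrp2, and 270 and 907 bp near Srp9. The part of peak length was not tested, and with 1 library a group the spread between mice is unknown.

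Genes of the endothelium had young-only regions in 4 of 15 listed cases (26.7%, beside 5.67% of all genes). Eng, the TGF-beta co-receptor endoglin of blood vessels, had a region of 228 tags in young vehicle and 143 in young TSA, 259 bp from an old TSA peak. Nrp2 is given above, and its region lay 229 bp from an old TSA peak. Notch1, a receptor of the Notch pathway, had 78 and 53 tags, and S1pr1, a receptor of sphingosine 1-phosphate, 62 and 43. Acetylated length in these windows was 21408, 17360, 8329 and 15311 bp at Eng for young vehicle, young TSA, old vehicle and old TSA, and 19662, 16235, 7750 and 17982 bp at Notch1. Thus the genes stayed acetylated in the old libraries, and old TSA covered Notch1 over a length between those of the young ones.

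Defining endothelial markers had fewer tags in the old libraries. Of Eng, Egfl7, Sox18 and Sele, 3 had a peak at a gene end in every library and Sele had none. Their summed tags were 4517 (vehicle) and 4479 (TSA) in the young libraries and 1333 and 2740 in the old ones, while those of the 8 FAP markers were 8224, 5364, 4747 and 5642. These sums are not scaled, and the median ratio of old vehicle to young vehicle over shared regions was 0.653. Among the FAP markers Prrx1 had 1370 tags at its ends in young vehicle and 90, 74 and 101 in the other libraries. The part of endothelial cells in the young-only regions was not tested, and fewer cells of a type cannot be told apart from less acetylation per cell. Leukocyte markers (Ptprc, Spi1, Fcer1g, Fcgr3, Cd53) had no peak in the young libraries, and only Spi1 had any in old vehicle (36 tags) and old TSA (121). Of the tenocyte markers Prelp had 180 to 232 tags and Fmod none.

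Of the cytoskeleton and adhesion list, 7 of 22 genes (31.8%) had a young-only region. Nav1, a microtubule-associated protein gene, had 2 regions with 227 tags in young vehicle and 157 in young TSA, and Dst, the gene of the cytoskeletal linker dystonin, 1 with 134 and 64. Nes, which encodes the intermediate filament nestin, was the case with more tags under TSA, 136 against 95, and its window was covered over 4634, 6616, 374 and 6650 bp in young vehicle, young TSA, old vehicle and old TSA. The list's other genes with such a region included Itga6, Tns1 and Actr3. Tns1, the gene of the focal adhesion protein tensin 1, had 104 and 78 tags in its region and 35852 to 57946 bp covered in the 4 libraries.

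Matrix genes had young-only regions in 5 of 35 cases (14.3%). Lamc1 had 4 with 372 tags in young vehicle and 227 in young TSA, and Postn 2 with 273 and 123. A region 6423 bp from Fbn1, the fibrillin-1 gene of microfibrils, held 143 and 58 tags, and regions in Tgm2, a transglutaminase gene, and Col6a3, a type VI collagen chain, held 57 and 42 and 46 and 36. All 5 had fewer tags with TSA, as did 231 of the 308 young-only regions. Among the 7 FAP identity genes only Prrx1, a homeobox factor of limb mesenchyme, had one, with 76 and 56 tags at 73 bp from an old peak.

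Genes of muscle stem cells and myogenesis had young-only regions in 3 of 14 cases (21.4%). They were Cxcr4, Itga6, the laminin receptor subunit integrin alpha 6 (130 tags in young vehicle and 92 in young TSA), and Myog, the muscle transcription factor myogenin (65 and 43). Of the 7 muscle markers Myog, Myl1, Tnni1, Tnnc2, Casq1, Neb and Ttn, 2 had a gene-end peak in each young library (Myog with 96 and 43 tags, Casq1 with 169 and 177), none in old vehicle, and Casq1 with 214 tags in old TSA. The young-only region at Myog makes up the 43 tags of young TSA and 65 of the 96 of young vehicle. The rule itself leaves no old peak there, so Myog is no separate reading of age. The part of myogenic cells in the young-only regions was not tested. No listed muscle fibre gene, of 20, had a young-only region.

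In adipogenesis, 2 of 13 genes (15.4%) did, namely Rxra, the nuclear receptor partner of PPARgamma, with 2 regions of 148 and 152 tags in all, and Adipor1, an adiponectin receptor gene, with 71 and 67. Of the Wnt, Notch and Hedgehog list it was 2 of 17 (11.8%), namely Notch1 and the Notch ligand gene Dll4 (90 and 47 tags). The list named cell cycle gave 3 of 28 (10.7%), namely Smc4 of condensin, Cks1b and Rgs2 (45 and 55 tags). The Smc4 region is the one in Trim59 with 107 and 91 tags, and that of Cks1b lies in the neighbouring gene Shc1 (79 and 59). Acetylation enzymes and readers gave 1 of 8 (12.5%), the coactivator Ncoa2 (52 and 65). The TGF-beta and BMP list gave 1 of 15 (6.67%), the BMP receptor gene Acvr1 (62 and 39), and growth factors and receptors 1 of 15 (6.67%), Nrp2. Interferon response genes gave 1 of 17 (5.88%), Samhd1 (95 and 51), and Hox and limb factors 2 of 22 (9.09%), Prrx1 and Lmx1a (51 and 51).

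Among housekeeping genes 2 of 22 (9.09%) had a young-only region, the ribosomal protein genes Rps27, whose region lies in the neighbouring gene Rab13, and Rpl12. There was none for senescence and secretory products (11 genes), macrophages and myeloid cells (20), lymphocytes (25), pericytes and smooth muscle (7), tenocytes (2), Schwann cells and glia (7), neural genes (28) or immediate early genes (7). The number of peaks differs from list to list, its part in these counts was not tested, and they are a description only.

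H3K9/14ac, which the rule did not use, was measured on 218 of the 308 regions, those on chromosome 1 and on chromosome 2 up to position 167064301. In the young libraries a peak of that mark overlapped 27 regions with vehicle (12.4%, 8.32 to 17.5) and 34 with TSA (15.6%, 11.0 to 21.1). In the old libraries it overlapped 31 with vehicle (14.2%, 9.87 to 19.6) and 27 with TSA (12.4%, 8.32 to 17.5). Over all 6410 merged H3K27ac regions the shares were 31.2%, 36.3%, 34.4% and 32.7%. The 4 shares of the young-only regions lie within one another's intervals, but the same 218 regions were scored in each library. These intervals therefore do not compare the ages, and with 1 library per group a difference by age was not tested. At least 1 H3K9/14ac list held a peak at 50 regions (22.9%, 17.5 to 29.1, against 42.3% of all merged regions). Among regions with 59 to 111 young vehicle H3K27ac tags the share was 25.9% (18.1 to 35.0) for the young-only regions. For all merged regions in that range it was 28.1% (25.7 to 30.7), and for those in all 4 lists 59.1% (53.1 to 64.9).

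**Figure D4:**
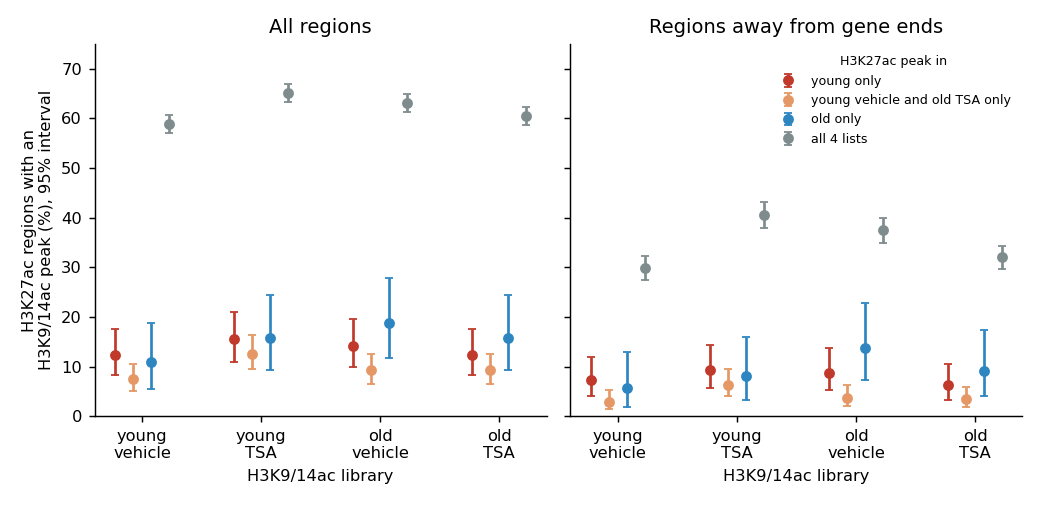
Share of H3K27ac regions that overlap an H3K9/14ac peak (vertical axis, percent, with 95% exact intervals) in each H3K9/14ac library (horizontal axis), by the H3K27ac lists that hold the region, for all regions (left) and those away from gene ends (right). Young-only regions lie at 12.4% to 15.6% on the left in both ages, and regions of all 4 lists at 58.9% to 65.1%.

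Regions of other patterns bracketed the share of 22.9%. At least 1 H3K9/14ac peak was present at 16.2% (12.7 to 20.3) of the regions of young vehicle and old TSA only, at 27.7% (19.3 to 37.5) of those of the old lists only, at 8.93% (7.30 to 10.8) of those of young vehicle alone and at 72.4% (70.7 to 74.1) of those in all 4 lists. Position in the genome went with it: 17 of 25 young-only regions at gene ends had such a peak (68.0%, 46.5 to 85.1) and 33 of 193 elsewhere (17.1%, 12.1 to 23.2). For regions of all 4 lists these shares were 97.1% and 51.2%, and for all merged regions 91.1% and 24.6%.

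By library, 168 of the 218 young-only regions had no H3K9/14ac peak, 12 had one only in young lists, 9 only in old lists and 29 in lists of both ages. None had it in both young lists and neither old one, the pattern that H3K27ac shows here by choice, and 2 had the reverse. A peak in all 4 H3K9/14ac lists was present at 16 regions. They lay at or in Nr5a2, Cdca7, Cxcr4, Ggta1, Npas2, Tspan18, Mrps2, Vash2, Lin9, Frmd4a, Mettl15, Daw1, Rgs2, Mpzl1, Slco5a1 and Pecr.

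The Nr5a2 region held 223 H3K9/14ac tags with vehicle and 320 with TSA in young cells, and 119 and 93 in old cells, so both young values were above both old ones. Cdca7 was ordered alike, with 161, 204, 130 and 86 tags. Cxcr4 had 86, 231, 116 and 123, where the young vehicle value was the lowest of the 4. At Ggta1, a galactosyltransferase gene, with 95, 90, 113 and 160 tags, and at Npas2, with 70, 127, 157 and 276, both old values were above both young ones in unscaled tags. Relative to the median ratio of the libraries, Ggta1 was -0.09 ± 0.20 for old vehicle over young vehicle. The ages overlapped at the upper end of Tspan18 (126, 256, 197 and 153 tags), at Mrps2 (154, 241, 265 and 152) and at Vash2 (210, 328, 288 and 187). All 16 regions, those at Tspan18 and Vash2 among them, had H3K9/14ac peaks at both ages and, by the rule, no H3K27ac peak in old cells.

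**Figure D5:**
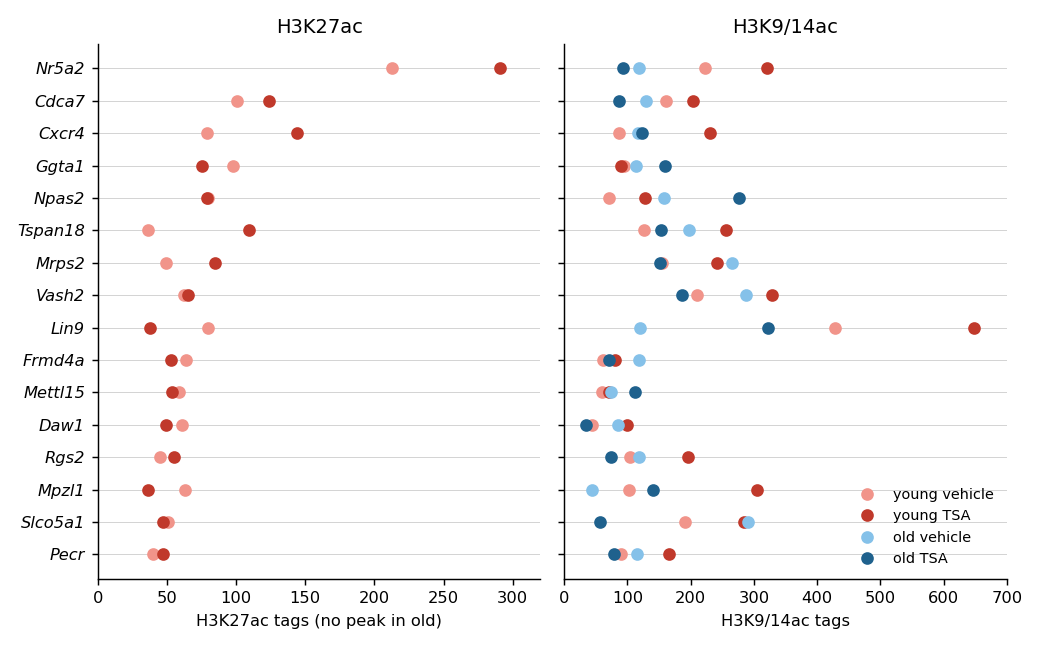
Tags at the 16 young-only regions with a peak in all 4 H3K9/14ac lists (rows, named by gene): H3K27ac tags in the young libraries on the left and H3K9/14ac tags in all 4 libraries on the right, 1 point for each library. At Nr5a2 and Cdca7 both young H3K9/14ac values exceed both old values, whereas at Npas2 the old values are the higher ones.

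Relative to the median ratio over the 1709 H3K9/14ac regions of all 4 lists, old vehicle over young vehicle was higher in 9 and lower in 7 of the 16 regions, with a median log2 difference of 0.06. It was under -1 in 3, namely Lin9 (-2.18 ± 0.15, counting error), Mpzl1 (-1.57 ± 0.26) and Nr5a2 (-1.25 ± 0.16), beside 2.11% of all such regions, and over 1 in 0, beside 4.74%. Old TSA over young TSA was higher in 4 and lower in 12, with a median of -0.48. It was under -1 in 3, namely Slco5a1 (-1.84 ± 0.21), Nr5a2 (-1.30 ± 0.17) and Daw1 (-1.08 ± 0.29), beside 1.64%, and over 1 in 3, namely Npas2 (1.60 ± 0.15), Ggta1 (1.31 ± 0.19) and Mettl15 (1.14 ± 0.22), beside 2.81%. Nr5a2 was the one region under -1 in both.

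For TSA over vehicle at these 16 regions, the relative H3K9/14ac ratio had a median of 0.25 in young, with 2 regions over 1 (2.81% of all) and 0 under -1 (2.22%). In old it had a median of 0.01, with 4 over 1 (3.10%) and 1 under -1 (1.70%). The young and the old comparisons use the same 4 libraries, so they are not independent of the age comparisons above.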

How the data were processed

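H3K27ac and H3K9/14ac ChIP-seq peak lists of 8 libraries were used; the 4 input samples were not used here. Per the file headers, the differential peak program of HOMER wrote each list, with a library set against itself, and the deposited tag count of a peak is a whole number that is not normalized. The submitters' processing notes name Bowtie 0.12.7, TopHat2 2.0.9, HTSeq 0.6.1p1, DESeq2, HOMER and MACS2, without roles, and build GRCm38. The sources used here do not give total reads per library. Every deposited list breaks off inside 1 incomplete line, so each mark was analysed only where all 4 lists reach; this held 12.5% to 18.3% of the peaks counted in the headers. H3K27ac peaks of the stretch held 952786 to 1659160 tags a library and H3K9/14ac peaks 426273 to 631446.

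Peaks were merged, classed by the lists that hold them and placed with RefSeq genes and promoter windows of GRCm38.p6 (Python 3.11.15, pandas 2.3.3, numpy 2.4.6, scipy 1.17.1, matplotlib 3.10.9). The gene table has neither strand nor exons, so intron, exon and UTR were not told apart. Shares carry exact Clopper-Pearson 95% intervals; with 1 library a group no test between groups was made. The steps were tested on simulated peak lists. The rule and the 23 gene lists with 513 symbols, all matched, were chosen with earlier results of these data known. Named regions are the 10 with most tags, the 10 widest, the 12 strongest at gene ends, the 8 genes with most regions, the 8 with H3K9/14ac in most lists and up to 4 genes per list; names picked outside this rule are given as such, and some items that the rule names are not reported here. Alternatives were other merging gaps, stricter or equal-length lists, a margin to old peaks, other gene windows and overlaps, and, added after seeing the data, each H3K27ac list left out.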

Additional observations from a re-analysis of the deposited data

Results flagged for a closer look

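The number of young-only regions with an H3K9/14ac peak differed between TSA and vehicle in opposite directions at the 2 ages: TSA minus vehicle was 7 regions in young (34 against 27) and -4 in old (27 against 31). The difference between ages was not tested, since each group has 1 library. The H3K9/14ac lists move the same way, with 2711 peaks in young vehicle and 3336 in young TSA, and 3235 in old vehicle and 2474 in old TSA, and the part of list length was not tested.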

How the results depend on the processing

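Of 47 values recomputed with another setting, not counting lists left out, 35 stayed within the interval or within 1.5 times the count, and 12 moved further. The 35 include the H3K9/14ac shares with chromosomes 1 and 2 only. These could not change, since that mark was analysed on those chromosomes alone. In the upper 50% of each list by tags the regions numbered 148, with 20.3% at gene ends and 135 genes in reach. H3K9/14ac peaks then overlapped 31.4% in young vehicle, 33.9% in young TSA, 33.9% in old vehicle, 28.8% in old TSA and 46.6% in any list. The stricter lists turn regions with weak old peaks into young-only ones by construction. Requiring no old peak within 1000 bp left 198 regions and 130 genes, fewer by construction. The share at gene ends was 9.0% with gaps of up to 500 bp merged and 17.9% with gene ends of 2500 bp. Leaving out 1 H3K27ac list, which loosens the rule, gave 372 (without old vehicle) to 1858 regions (without young TSA), 8.02% (without young TSA) to 23.4% (without old TSA) at gene ends and 257 (without old vehicle) to 795 genes (without young TSA). The count thus depends on each list, and 1 library per group leaves the spread between mice unknown. No paired analysis was possible because each group has 1 library and no result comes from a fitted test. With young vehicle tags brought to the old vehicle scale, 107 of 308 regions fell under the 10th percentile of old vehicle peaks, and 160 with young TSA tags; the part of depth was not tested.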
